A study of Homo sapiens with 6 samples.

Results

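The genes described here are the ZNF-named zinc finger genes that responded in MOLM-13 cells to DEG-35, a compound that the study names as a degrader of the proteins IKZF2 and CK1α. They are the rows of the authors' deposited comparison whose name begins with ZNF and a digit, without ZNF276 and without hyphenated names such as antisense genes. By this rule 174 of the 6831 genes in the table are members. The table lists a gene when its adjusted p is below 0.05, so every member had already passed that threshold, and their number is no evidence about the family. MOLM-13, a human cell line grown from acute myeloid leukaemia, carries a KMT2A fusion and has a wild-type genotype label in both groups. Cells had 24 h with the solvent DMSO or with 50 nM DEG-35, and each group has 3 RNA-seq libraries.

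Most ZNF-named genes encode C2H2 zinc finger proteins, in which a pair of cysteines and a pair of histidines hold a zinc ion and each finger contacts a few bases of DNA. In the largest class the fingers follow a KRAB box, which recruits the scaffold protein TRIM28 (KAP1), and through it the histone methyltransferase SETDB1, HP1 proteins and deacetylases that silence chromatin. Many KRAB zinc finger proteins bind transposable elements, and their genes lie in clusters that grew by duplication, above all on chromosome 19. Members without a KRAB box include ordinary transcription factors and proteins that act on RNA or the spindle.

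For each gene the table holds the log2 fold change with raw and adjusted p-values. It has no counts, levels or values per library, so no value per sample can be shown and the depth of each library is unknown. Directions are read as DEG-35 over DMSO, which the header does not state, and all would turn round in the other order. The error printed with each log2 fold change is the standard error (SE) that the fold change and its p-value imply under a Wald test. Whether the 3 libraries of a group are separate cultures is not labelled, and the p-values then cover only the spread between these libraries, which may be technical. Without levels the cell identity cannot be checked. All 7 myeloid markers on a short list (FLT3, CD33, MPO, ITGAM, CSF1R, MEIS1 and HOXA9) were listed, beside 45.3% of all tested genes, and thus measured. None of 6 lymphoid and erythroid markers was listed, which does not show that their RNA was absent, since unchanged genes are not listed either. In bulk RNA a change per cell cannot be told apart from a change in the mix of cells.

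ZNF-named genes went both ways. With DEG-35, 95 members were higher and 79 lower. Over all genes the deposited adjusted p-values imply 15064 tests, of which 45.3% passed, 21.4% higher and 24.0% lower. Higher genes thus made up 54.6% of the members and 47.1% of the whole table. The median log2 fold change was 0.24 for the members and -0.19 for all listed genes. Moving every value by 0.3 log2 units, as other scaling factors could, gave 80 higher members with a shift down, where the median turned to -0.063, and 119 with a shift up. The same shifts gave 36.6% and 60.8% higher genes in the table. Changes were modest: the median absolute log2 fold change was 0.44 against 0.47 for all listed genes, and 20 members (11.5%) reached an absolute log2 fold change of 1, 12 up and 8 down, against 18.3% of the table. That fold was reached by 4.23% of all tested genes upward and 4.08% downward. At an adjusted p below 0.01 there were 68 higher and 58 lower members (17.1% and 19.7% of all tested genes), and with Bonferroni adjustment 28 and 29, where 8.94% of all tested genes were higher and 20.9% passed in either direction. With Bonferroni adjustment the members' median was -0.36, beside -0.39 for the table, so its sign also depends on the threshold. The members ran from -2.30 to 1.95.

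**Figure D1:**
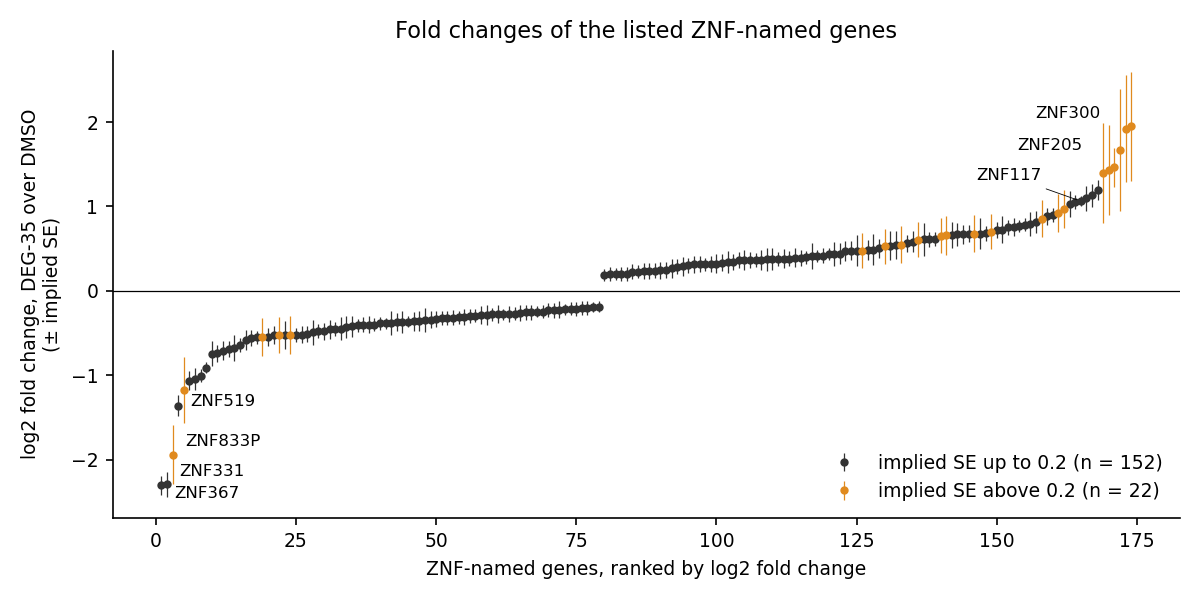
Log2 fold change of DEG-35 over DMSO for each of the 174 listed ZNF-named genes, ranked from lowest to highest, with implied SE as bars. The gap around 0 is where genes did not pass the threshold, and 22 genes with an implied SE above 0.2 (orange) lie mostly among the rises.

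RefSeq names 509 protein-coding genes that fit the rule, of which 163 were members and 346 were not listed, so those missed the threshold or went untested. The listed share was therefore 32.0% of annotated genes, a denominator that holds untested genes, unlike the 45.3% above. The other 11 members are typed as transcribed pseudogenes, 8 of them higher. Among the members, by the authors' deposited values, ZNF833P had the third-largest fall at -1.94 ± 0.352, and ZNF542P the third-largest rise at 1.67 ± 0.720. Precision differed by direction, in the members and in the whole table. Of the 22 members with an implied SE above 0.2, 17 were higher. Among the 152 more precise ones 78 were higher and 74 lower. Dropping the imprecise members took the higher share from 54.6% to 51.3%. The same limit took it from 47.1% to 43.7% in the whole table, so this lean was not particular to the members.

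Members with a KRAB box were more often higher than members without one. A KRAB box was found in 116 of the 164 members with a translated GENCODE coding sequence (70.7%), close to its share of 66.1% among the 508 ZNF-named proteins examined. Of these 116, 70 were higher and 46 lower (60.3% higher), and their median log2 fold change was 0.31. Of the 48 without one, 18 were higher and 30 lower (37.5% higher), with a median of -0.25. Of all listed genes 47.1% were higher, with a median of -0.19. These are counts of genes that had passed, and genes are not replicates, so no test was made of the difference. The order held in the members with an implied SE of at most 0.2, with 57.7% against 33.3% higher, where the table had 43.7%. A stricter KRAB pattern narrowed the gap to 61.2% against 45.6%. Calls rest on each gene's main transcript, so some of the 48 may encode a box that was missed. When 0.3 was added to every value the shares were 69.8% and 62.5%, beside 60.8% of the table. The gap thus depends in part on where 0 lies. KRAB members on chromosome 19 (40 of 69 higher) and elsewhere (30 of 47 higher) had medians of 0.27 and 0.33.

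By number of fingers, only members with fewer than 5 stood apart in direction. Members carried between 0 and 35 fingers of the classical spacing, with a median of 11 in KRAB members and 7 in the others. Of 22 members with fewer than 5 fingers, 6 were higher and 16 lower. Higher members were 29 of 51 with 5 to 9 fingers, 32 of 56 with 10 to 14 and 21 of 35 with 15 or more. ZNF862, ZNF738 and ZNF503 had no finger of this spacing. A SCAN box, an oligomerization domain, was found in 4 members, with ZNF75D and ZNF397 higher and ZNF215 and ZNF232 lower.

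**Figure D2:**
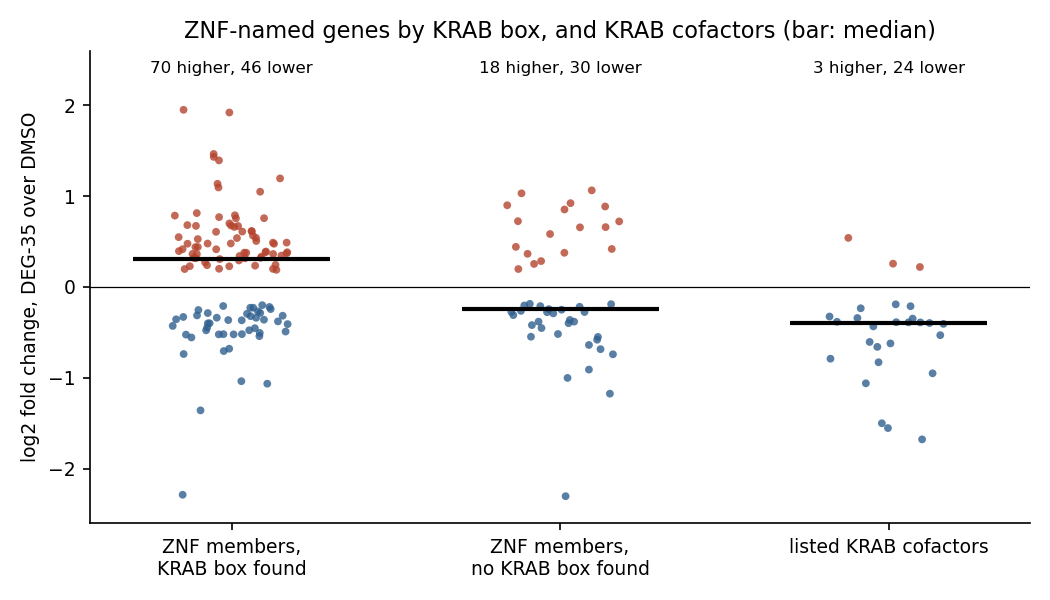
Log2 fold change of each listed ZNF-named gene with a KRAB box (116 genes) or without one (48 genes), and of the 27 listed KRAB cofactors. Points are genes, red if higher and blue if lower with DEG-35, and the bars are medians at 0.31, -0.25 and -0.40.

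Listed genes of a broad set of KRAB cofactors and other silencing factors were mostly lower. Of 41 such genes, here called cofactors, 27 were listed (65.9%, beside 45.3% of all tested genes). Here and in the lists below, the listed share counts genes that may not have been tested, unlike the 45.3%. These were 3 higher and 24 lower, where 21.4% of all tested genes were higher and 24.0% lower. The median of the 27 was -0.40 on the log2 scale. TRIM28, the scaffold that binds KRAB boxes, fell by 0.53 ± 0.0861 in the authors' deposited table, and the HP1 genes CBX5, CBX1 and CBX3 fell by 0.83 ± 0.0624, 0.79 ± 0.0757 and 0.38 ± 0.0634. The methyltransferase gene SETDB1 went the other way, at 0.26 ± 0.0645 in that table, as did ATRX, a chromatin remodeler, at 0.54 ± 0.0732, and GATAD2B, a subunit of the NuRD deacetylase complex, at 0.22 ± 0.0670. All other listed NuRD genes fell, from -0.23 for MTA2 to -1.06 for RBBP7. The lowest values of the list belonged to UHRF1 (-1.68 ± 0.104) and DNMT1 (-1.55 ± 0.0575), which maintain DNA methylation through replication, and SUV39H1 (-1.50 ± 0.0944), a heterochromatin methyltransferase, in the authors' deposited table. Raising every log2 fold change by 0.3 would turn 3 of the 24 lower cofactors. The HUSH genes MPHOSPH8, PPHLN1 and FAM208A, the SETDB1 partner gene ATF7IP and EHMT1 and EHMT2 were among the 14 not listed.

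The largest falls were those of ZNF367 and ZNF331. ZNF367, a zinc finger transcription factor gene without a KRAB box whose mRNA is known to vary over the cell cycle, was 4.94-fold lower, at -2.30 ± 0.108 (adjusted p = 3.56e-99) in the authors' deposited table. ZNF331, an imprinted KRAB zinc finger gene, was 4.88-fold lower at -2.29 ± 0.148 (adjusted p = 2.14e-52). No 50-base stretch of either gene's main transcript occurs in a transcript of another GENCODE gene. ZNF519 at -1.36 ± 0.125, ZNF850 at -1.06 ± 0.112 and ZNF530 at -1.04 ± 0.130 followed in the authors' deposited table. These 3 genes encode a KRAB box. ZNF714, in whose main transcript none was found, was 2.00-fold lower with an implied SE of 0.0765 in the authors' deposited table. ZNF395, at -0.91 ± 0.0651, and the developmental repressor gene ZNF503, at -0.74 ± 0.143, complete the 8 largest falls among members with an implied SE of at most 0.2.

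The 250 bases before the start of 5 of these genes or their relatives are printed from RefSeq (GRCh38.p14), to show where the letters counted below stand in them. Of the 3 motifs shown, CCAAT stood in most member promoters and the others in few. Motifs also counted but not shown were CHR (TTTGAA or TTCGAA), ETS (CCGGAAGT) and a p53 half-site. CHR was in 8.11% of higher and 17.6% of lower members' promoters, ZNF367 among them, and in 12.4% of those of listed genes. ETS was in 13.5% and 8.82% (listed genes 8.48%), and the p53 half-site in 2.7% and 5.88% (listed genes 5.11%). These differences were not tested. In ZNF367, at chr9:96418371-96418620 on the minus strand, the capitals mark matches to the E2F motif, searched on both strands as TTTCCCGC, TTTGGCGC, TTTCGCGC or TTTGCCGC. E2F factors drive genes of the G1/S transition.
ZNF367: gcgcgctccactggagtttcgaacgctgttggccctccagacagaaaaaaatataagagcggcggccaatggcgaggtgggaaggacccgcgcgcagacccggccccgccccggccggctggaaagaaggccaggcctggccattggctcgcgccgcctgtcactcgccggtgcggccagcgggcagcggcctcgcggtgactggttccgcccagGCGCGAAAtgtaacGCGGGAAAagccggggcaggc

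The 2 matches begin 35 and 21 bases before the start and do not overlap. A match stood in 8 of the 142 members' promoters (5.63%), counted over 250 bases before to 50 after the start, in 7.24% of those of ZNF-named genes not in the table, in 6.40% of promoters of listed genes and in 3.33% of all 27305 RefSeq promoters. Only 3 members (2.11%), ZNF367, ZNF101 and ZNF74, had 2 matches. At least 2 stood in 0.345% of promoters of ZNF-named genes not in the table, 0.441% of those of listed genes and 0.154% of all promoters. ZNF101 stood at -0.52 ± 0.0839 and ZNF74 at 0.33 ± 0.101 in the authors' deposited table. These 3 genes thus went both ways, and a link between such matches and direction was not tested.

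In ZNF331, at chr19:53520764-53521013 on the plus strand, the capitals mark TACANTTCCCAG, letters found within the binding motif of the member ZNF143, searched on both strands.
ZNF331: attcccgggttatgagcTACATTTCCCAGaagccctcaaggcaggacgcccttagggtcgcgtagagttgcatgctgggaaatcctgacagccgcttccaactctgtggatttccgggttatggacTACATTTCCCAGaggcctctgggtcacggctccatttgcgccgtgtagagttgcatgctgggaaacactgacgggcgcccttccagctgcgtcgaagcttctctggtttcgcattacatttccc

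These letters were in 13 of the 142 members' promoters (9.15%), in 6.55% of the 290 promoters of ZNF-named genes not in the table, in 1.08% of promoters of listed genes and in 0.593% of all promoters. Of the 13 members 7 were higher and 6 lower, among them ZNF277, ZNF546 and ZNF189 higher and ZNF850 and ZNF180 lower. ZNF331 was the 1 member with more than 1 match in this window: the 2 shown begin 233 and 124 bases before the start, and the last letters printed open another that runs across the start. ZNF143 itself, an activator of many promoters, stood at -0.25 ± 0.0887 in the authors' deposited table.

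The promoters of ZNF714 and ZNF493, both on chromosome 19, are alike while their fold changes are opposite. The capitals mark CCAAT, the box bound by NF-Y, searched on both strands. ZNF714 lies at chr19:21081953-21082202 and ZNF493 at chr19:21396883-21397132, both on the plus strand. ZNF519, another large fall with 2 CCAAT boxes in the printed bases, lies at chr18:14132436-14132685 on the minus strand.
ZNF714: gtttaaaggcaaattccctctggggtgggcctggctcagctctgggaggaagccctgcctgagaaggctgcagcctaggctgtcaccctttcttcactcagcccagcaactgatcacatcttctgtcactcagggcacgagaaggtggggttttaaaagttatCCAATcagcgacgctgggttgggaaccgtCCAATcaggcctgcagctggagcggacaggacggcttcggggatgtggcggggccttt
ZNF493: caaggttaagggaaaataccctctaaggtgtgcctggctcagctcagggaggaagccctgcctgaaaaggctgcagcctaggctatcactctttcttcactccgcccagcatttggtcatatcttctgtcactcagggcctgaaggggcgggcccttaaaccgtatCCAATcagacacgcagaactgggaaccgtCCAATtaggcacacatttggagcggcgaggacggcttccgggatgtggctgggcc
ZNF519: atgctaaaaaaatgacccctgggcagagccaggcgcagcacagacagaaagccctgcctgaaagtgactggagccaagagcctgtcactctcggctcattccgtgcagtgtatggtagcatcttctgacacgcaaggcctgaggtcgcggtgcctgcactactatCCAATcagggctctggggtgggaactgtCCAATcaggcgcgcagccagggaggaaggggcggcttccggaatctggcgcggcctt

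ZNF714 and ZNF493 had the same base at 203 of 247 aligned positions (82.2%), and ZNF519 matched them at 71.8% and 72.3%. Yet ZNF714 was 2.00-fold lower and ZNF493, at 0.79 ± 0.0730, 1.72-fold higher in the authors' deposited table. A CCAAT box was in 73 of the 142 members' promoters (51.4%), 39 of the 74 of higher members and 34 of the 68 of lower members, against 37.8% of promoters of listed genes and 47.6% of those of ZNF-named genes not listed. At least 2 boxes were in 18.3% of members (10 higher and 16 lower), in 18.3% of unlisted ZNF-named genes and in 14.7% of listed genes.

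The largest rises with an implied SE of at most 0.2 were about 2-fold. ZNF862, a KRAB gene with no classical finger, led them at 1.19 ± 0.122. Of the 50-base stretches of its main transcript, 31.0% also occur in AC004877.1. ZNF556 at 1.14 ± 0.137, ZNF596 at 1.09 ± 0.144 and ZNF117 at 1.06 ± 0.0631 followed in the authors' deposited table. ZNF117 had the smallest adjusted p of any rise among the members, 5.89e-62. It overlaps ERV3-1, a gene of an endogenous retrovirus on the same strand, which stood at 1.15 ± 0.0676, and the sources used here do not say how reads of this pair were assigned. ZNF581, at 0.89 ± 0.101, completed these rises with the 3 genes ZNF337, ZNF79 and ZNF277 described below. The largest values of any precision belonged to the KRAB genes ZNF300 (1.95 ± 0.643, adjusted p = 0.00686) and ZNF205 (1.92 ± 0.631, adjusted p = 0.00665) in the authors' deposited table. Both overlap a listed gene on the other strand that was also higher, IRGM at 2.20 ± 0.665 and ZNF213-AS1 at 0.50 (adjusted p = 0.0279), and both lost their call with Bonferroni adjustment.

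Of 8 ZNF genes linked to p53, 4 were higher and 4 were not listed. That listed share, 50.0%, is near the 45.3% of all tested genes, of which 21.4% were higher. The median of the 4 was 0.90 on the log2 scale, and the list was drawn up with the p53 response of these cells known. ZNF337, a reported p53 target with a KRAB box, was 2.07-fold higher (1.05 ± 0.0835, adjusted p = 1.14e-34 in the authors' deposited table), but 77.9% of the 50-base stretches of its main transcript also occur in ZNF337-AS1, so reads counted to it may belong to either. ZNF79, another reported target, was 2.04-fold higher (1.03 ± 0.149) and shares no such stretch. ZNF561 was 1.70-fold higher (0.77 ± 0.0744), and its antisense partner ZNF561-AS1 also rose, by 1.59 ± 0.271. ZNF385A (HZF), which steers p53 toward arrest genes, was 1.65-fold higher (0.72 ± 0.0907) in the authors' deposited table. ZNF148, ZNF365, ZNF420 and ZNF668 were not listed. No shift of 0.3 turned any of the 4.

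Of the cell cycle and spindle list, 2 of 3 genes were listed, both lower, beside 24.0% lower of all tested genes. So short a list gives no direction of its own. Beside ZNF367, ZNF207 (BuGZ), a spindle assembly and BUB3-binding protein, was only 1.14-fold lower (-0.19 ± 0.0622) in the authors' deposited table, and a shift up by 0.3 would turn it. ZNF695 was not listed. Of 9 genes of RNA, ribosomes and translation 2 were listed (22.2%, beside 45.3% of all tested genes). ZNF277, which binds a ribosomal protein and takes part in silencing of the CDKN2A locus, was 1.87-fold higher (0.90 ± 0.0880, adjusted p = 3.15e-23 in the authors' deposited table). ZNF598, the ubiquitin ligase that senses collided ribosomes, stood at -0.55 ± 0.226 in that table, with an adjusted p of 0.0361.

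Most chromatin and transcription factors without a KRAB box, 23 of 30, were not listed. The other 7 (23.3%, beside 45.3% of all tested genes) were 6 lower and 1 higher, and their median was -0.24. Any untested genes among the 30 lower the 23.3%. ZNF644, a partner of the H3K9 methyltransferases EHMT1 and EHMT2, fell by 0.40 ± 0.0754 and ZNF318 by 0.38 ± 0.0672 in the authors' deposited table. ZNF143, ZNF281, ZNF592, of a complex with ZNF687 and ZMYND8, and ZNF292 lay between -0.25 and -0.21. ZNF217, an oncogene product that binds the CoREST complex, was the exception at 0.20 ± 0.0702 in the authors' deposited table. A shift of 0.3 would turn 4 of the lower genes and the higher one.

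Of 14 KRAB genes reported to act on transposable elements, imprints or ZNF genes, 6 were listed (42.9%, near the 45.3% of all tested genes), 3 in each direction, with a median of 0.04. ZNF534 stood at 1.43 ± 0.538, ZNF382 at 0.53 ± 0.212 and ZNF10 (KOX1), whose KRAB box is used in CRISPR interference, at 0.49 ± 0.116 in the authors' deposited table. ZNF765, ZNF180 and ZNF100 fell by 0.51 ± 0.0949, 0.45 ± 0.112 and 0.40 ± 0.0867 there. ZNF91, ZNF93, ZNF445, ZNF808 and ZNF274, which binds the ends of ZNF genes, were among the 8 not listed. Of 3 ZNF genes whose proteins are reported to be degraded through cereblon with related drugs, ZNF692 was listed, 1.29-fold higher at 0.36 ± 0.0789, and ZNF653 and ZNF827 were not. The mRNA says nothing of the proteins.

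**Figure D3:**
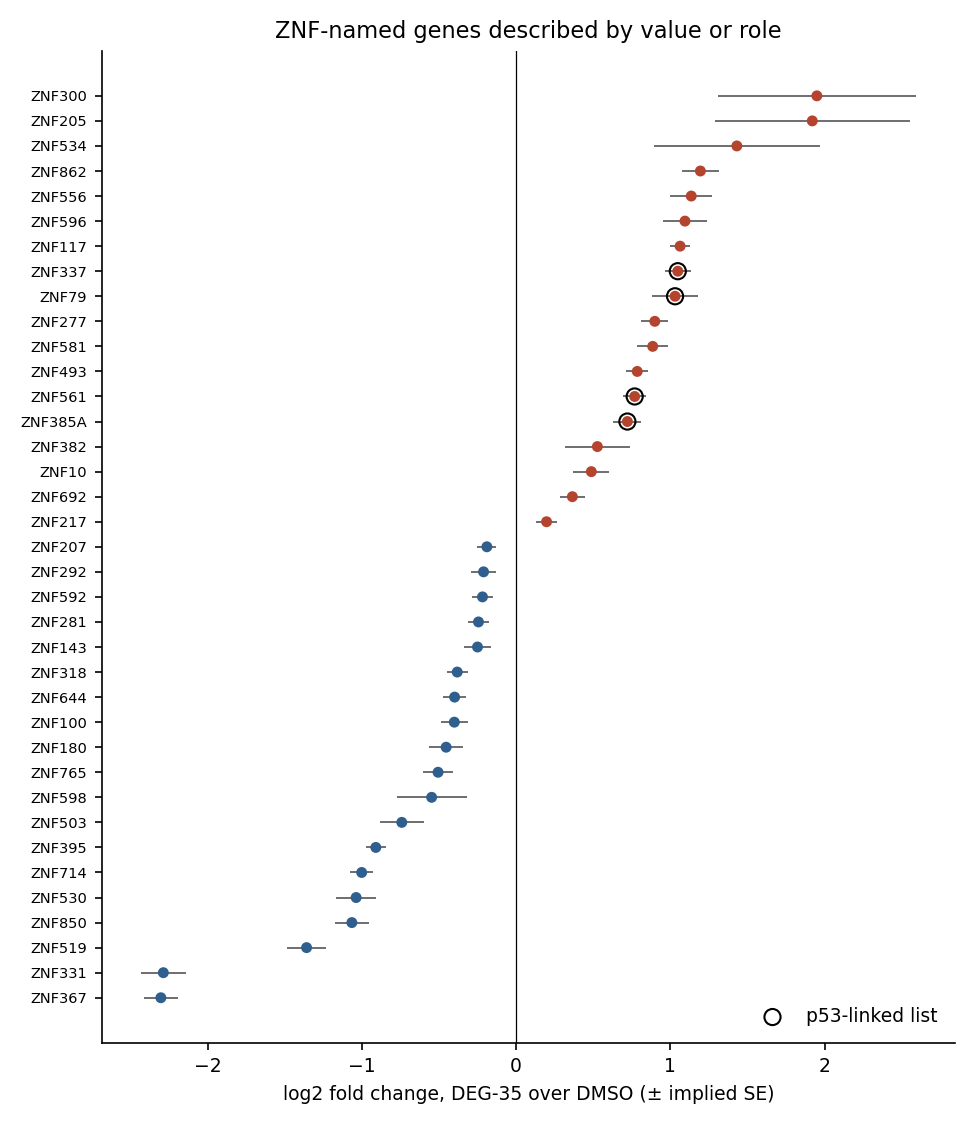
Log2 fold change of DEG-35 over DMSO, with implied SE, for the 37 members named for their value or role. The 4 listed genes of the p53-linked list (circled) lie between 0.72 and 1.05, while ZNF331 and ZNF367 stand below -2.

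Neighbouring ZNF genes moved in the same direction somewhat more often than not. Chromosome 19 held 78 members, 44 higher and 34 lower, and the other chromosomes 96, of which chromosome 7 had the most, with 10 higher and 9 lower. Of 7 members on chromosome 1, ZNF692 was the single higher one. Counting coding ZNF-named genes that are next to each other within 100 kb, 31 pairs had both genes listed. In 20 pairs (64.5%) the directions matched, 13 with both higher and 7 with both lower, where any 2 coding members match in 50.2% of cases. With both implied SEs at most 0.2, 14 of 23 pairs matched. Pairs share genes and sequence, so this is a description without a test.

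Runs of one direction were seen along chromosome 19. Its first 9 listed coding members in order, from ZNF554 to ZNF627, were all higher, with ZNF556 the highest of them. Further on, ZNF610, ZNF880, ZNF528, ZNF534 and ZNF701 were higher in a row (0.61 to 1.43), whereas the 6 listed members from ZNF665 to ZNF331 were all lower (-0.36 to -2.29). ZNF331 stood far below its listed neighbour ZNF813, at -0.36 ± 0.121 in the authors' deposited table.

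**Figure D4:**
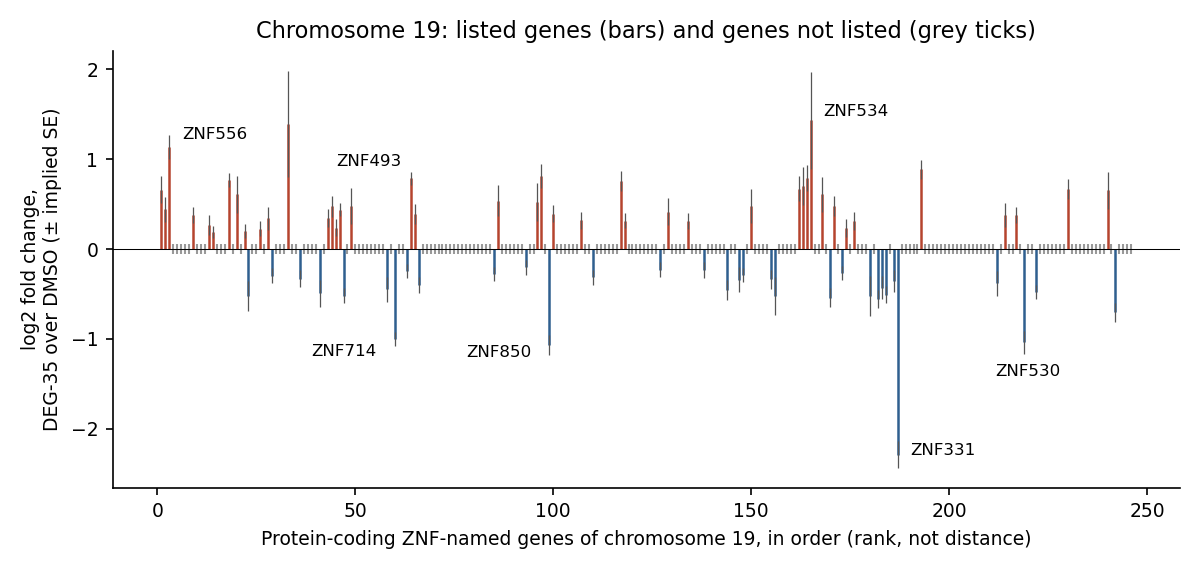
The 246 protein-coding ZNF-named genes of chromosome 19 in order along the chromosome (rank, not distance), with the log2 fold change and implied SE of the 74 listed ones as bars and the others as grey ticks. The first 9 bars point up and a block of 6 that ends with ZNF331 points down.

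Other neighbours went opposite ways. On chromosome 19 ZNF850 fell (-1.06 ± 0.112) beside ZNF790, which rose by 0.39 ± 0.0954, and ZNF611 fell by 0.54 ± 0.107 beside ZNF600, which rose by 0.48 ± 0.114, in the authors' deposited table. On chromosome 6 ZNF391 (0.85 ± 0.220) adjoined ZNF184 (-0.74 ± 0.0984), and on chromosome 7 ZNF425 (1.46 ± 0.230) adjoined ZNF398 (-0.41 ± 0.0790). Duplicates did not always move together either. ZNF33A and ZNF33B rose by 0.62 ± 0.0878 and 0.76 ± 0.0871, whereas ZNF354A stood at 0.32 ± 0.113 and ZNF354B at -0.36 ± 0.131 in the authors' deposited table.

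Shared sequence limits some of these values. Of the 164 members with a GENCODE transcript, 23 had more than 20% of their 50-base stretches in another gene's transcripts, 37 had none, and the median was 3.26%. ZNF320 (0.23 ± 0.0983) shares 93.3% of its stretches with the overlapping ZNF468 (-0.27 ± 0.0765), ZNF286A (0.61 ± 0.0893) and ZNF286B (0.66 ± 0.229) share 54.8% and 57.4% of theirs with each other, and ZNF395 shares 41.7% with FBXO16, which rose by 0.92 ± 0.189 while ZNF395 fell. In all, 21 members overlap another listed gene. The sources used here do not give read length, strand or the treatment of shared reads, so these members' values are uncertain.

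Other C2H2 families, counted by their symbols, showed no single direction. Over all tested genes 45.3% were listed, 21.4% higher and 24.0% lower. The family sizes given here are coding RefSeq names, which include untested genes. Listed ZFP genes numbered 9 beside 21 names (6 higher), and ZSCAN genes 6 beside 21 (5 higher). ZKSCAN genes numbered 4 beside 7, all higher, and ZBTB genes 10 beside 42 (6 higher). Of the IKZF family 2 genes were listed beside 5 names, 1 higher and 1 lower. KLF genes, which encode short three-finger activators and repressors, had 7 listed beside 18 names, 6 of the 7 lower, with a median of -0.41. The differences between these families and the ZNF-named genes were not tested.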

How the data were processed

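RNA of 6 libraries, 3 with DMSO and 3 with DEG-35, was compared by the authors. The submitters' processing notes name hg19, STAR, featureCounts and DESeq2, without versions or options. The deposited values per gene are the log2 fold change and, raw and adjusted, its p-value, per the file headers. Genes with an adjusted p of 0.05 or more are not in the table. The adjusted p-values of the authors stand unaltered, since without values per library no gene, replicate or pairing could be tested anew, and the number of tests was recovered from them as adjusted p times rank over p. The implied SE is the absolute log2 fold change over the normal quantile of the two-sided p, assuming a Wald test. Both steps were run on simulated Wald tests, which checks the arithmetic only, not whether the deposited values come from such a test.

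Of the 174 names, 171 matched RefSeq (GRCh38.p14) symbols and 3 synonyms. Coding sequences of GENCODE release 29 main transcripts were translated, in place of the RefSeq proteins planned. A KRAB box was called by a HMMER profile built from 243 proteins with the strict KRAB pattern, at an E-value of at most 1e-05, which replaced the planned loose pattern. It called 0 of 65 ZBTB, KLF and IKZF proteins, and its rate of missed boxes was not measured. Fingers are 2 cysteines and 2 histidines (or a final cysteine) with classical spacing. Genome builds differ, so reference annotation gives only names, order and sequence. Promoter matches used RefSeq sequences of 142 members. The members, lists and tests were chosen with earlier results of these data known. Genes named are the 8 largest rises and falls with an implied SE of at most 0.2, the 5 smallest adjusted p in each direction, the 2 largest rises and falls, listed members of 6 role lists and cofactors. ZNF members outside these were named after their values were seen. Alternatives were an adjusted p of 0.01, a log2 fold change of at least 1, an implied SE limit, Bonferroni adjustment over 15064 tests, coding names, a shift of 0.3 (listed genes alone), a stricter KRAB pattern and a limit of 20% on shared stretches. Scripts ran on HMMER 3.4, MAFFT 7.526, Biopython 1.88, Python 3.11.15, SciPy 1.17.1, NumPy 2.4.6, pandas 2.3.3 and Matplotlib 3.10.9.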

Additional observations from a re-analysis of the deposited data

How the results depend on the processing

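Of 45 alternatives to the counts, shares and medians, 33 stayed within 1.5 times the count, within the exact binomial 95% interval of the share or within the members' median implied SE of the median. The counts of 95 higher and 79 lower members became 12 and 8 where a log2 fold change of 1 or more either way was required, and 28 and 29 with Bonferroni adjustment over all tests, since both settings are stricter. The median of 0.24 became 1.06 and -0.36 under these settings, both added after the data were seen for the median. Shifting all log2 fold changes, an alternative added after the data were seen for medians, KRAB shares and cofactors, moved that median to 0.54 (up by 0.3) and turned it to -0.063 (down by 0.3). The shift up took the higher share to 69.8% in KRAB members and 62.5% in the others, and changed the number of higher cofactors from 3 to 6, while the shift down left 1. The shift moves listed genes alone, so it does not give the counts of another scaling. A limit on shared stretches, also added later, left 72 members higher and 69 lower. Of the 37 named members, 31 passed an adjusted p of 0.01 and 22 passed Bonferroni adjustment, with their directions fixed. Of all tested genes 36.8% and 20.9% passed these settings. Many of the 37 were named for a small adjusted p or a large, precise change, so their passing was partly fixed by that choice. No paired analysis was possible because the table has no values per library, and for the same reason no replicate could be left out. Depth is unknown, so how far it limits the unlisted genes cannot be said.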
